A study of Mus musculus with 72 samples.

Results

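The genes described here were the collagens and the other stromal matrix genes of mouse pancreatic islets, in bulk RNA sequencing of 69 islet libraries. Members were the 32 rows whose symbol has the collagen form (Col, a number, a and a number) and 16 further rows from a list of matrix glycoproteins, proteoglycans, an enzyme and stromal cell markers. This gave 48 genes of the 14604 in the table, and no filter on low values removed any of them. Of the 29 genes listed by name, 27 had a row, and Lox and Timp1 were not analysed here. The members were chosen with earlier results of these data known, so their shares beside all genes are descriptions.

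Collagens are proteins of triple-helical chains that stromal cells secrete and that enzymes then trim and cross-link outside the cell. Fibrillar collagens such as types I, III and V form the cables of the interstitial matrix, whereas type IV forms the sheet of basement membranes and type VI a fine beaded network between them. In the islet, a basement membrane surrounds the capillaries and the islet edge, and it is built largely by endothelial cells, pericytes and fibroblast-like cells. Fibronectin, periostin and thrombospondins are glycoproteins that bind cells to this matrix or change how they adhere.

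The islets came from male mice, described as 8 weeks old, of the inbred strains BALB/cJ, DBA/2J and C57BL/6J (the last spelled C56BL/6J in the labels), kept on a high-fat diet (HFD) or on regular chow (RC) for 5, 13 or 33 days. The labels name no composition of either diet and no further treatment. Islets were freed with the enzyme blend Liberase, picked by hand and cultured overnight, and each library came from 120 to 150 islets of 1 mouse. Of the 18 groups of strain, diet and day, 15 had 4 libraries. The other 3 had 3 each, since 3 of the 72 labelled samples had no values here: in DBA/2J these groups were HFD at day 13 and RC at day 33, and in C57BL/6J it was RC at day 33. That made 35 HFD and 34 RC libraries.

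The libraries held 12292621 to 34591079 reads in the genes of the table (median 22756199). Beta cell markers summed to 129800 to 275400 CPM (reads of a gene scaled for library size) over the libraries and alpha cell markers to 18180 to 61010 CPM, so the defining genes of the labelled tissue were present. Some libraries stood apart. The summed level of macrophage markers was 335.4 CPM in BALB/cJ RC day 13 replicate 4, against 168.4 CPM in the next highest library of that strain, and 287.7 CPM in C57BL/6J RC day 33 replicate 4. Pericyte and smooth muscle markers outside the members summed to 162.1 CPM in DBA/2J HFD day 33 replicate 1, against 97.43 CPM in the next DBA/2J library. Acinar markers summed to 46950 CPM in BALB/cJ HFD day 5 replicate 3 and to 8684 CPM in C57BL/6J RC day 5 replicate 3, and each was over 1.5 times the second highest of its strain. The sample titles carry numbers whose meaning the labels do not give. In C57BL/6J at day 5 all of these numbers were lower in HFD than in RC libraries, so diet and title number cannot be told apart there, and in the other 8 pairs of strain and day the ranges overlapped.

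Promoter windows from RefSeq (GRCm38.p6; 250 bases before to 50 after the annotated start) were read for 5 loci that the results below turn on. These are the shared start of the type IV genes Col4a2 and Col4a1, the shared start of Col4a4 and Col4a3, Col3a1 as the fibrillar gene with the clearest diet difference, Ltbp2 as a gene that moved the other way, and Col6a6 as the gene with the largest strain difference. Each is written 5′ to 3′ on the strand of the gene named, and capitals mark matches on either strand to 3 motifs. One is the TATA box, searched as TATAAA. Another is the CCAAT box, searched by the letters of its name. The last is the GC box, searched as GGGCGG, and no matches of different motifs overlapped.
Col4a2 (chr8:11312555-11312854, plus strand): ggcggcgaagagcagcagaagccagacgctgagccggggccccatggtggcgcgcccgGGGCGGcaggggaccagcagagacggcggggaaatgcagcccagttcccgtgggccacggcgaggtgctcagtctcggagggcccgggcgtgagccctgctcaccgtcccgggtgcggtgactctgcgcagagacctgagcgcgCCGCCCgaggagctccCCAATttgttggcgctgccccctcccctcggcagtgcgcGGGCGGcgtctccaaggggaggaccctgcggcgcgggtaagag
Col4a4 (chr1:82586800-82587099, minus strand): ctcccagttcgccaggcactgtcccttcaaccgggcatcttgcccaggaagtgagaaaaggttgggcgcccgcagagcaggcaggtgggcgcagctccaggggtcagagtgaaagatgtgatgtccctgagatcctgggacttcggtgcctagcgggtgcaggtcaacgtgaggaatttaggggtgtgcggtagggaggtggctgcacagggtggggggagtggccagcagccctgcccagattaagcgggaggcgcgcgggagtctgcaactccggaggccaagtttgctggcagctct
Col3a1 (chr1:45311288-45311587, plus strand): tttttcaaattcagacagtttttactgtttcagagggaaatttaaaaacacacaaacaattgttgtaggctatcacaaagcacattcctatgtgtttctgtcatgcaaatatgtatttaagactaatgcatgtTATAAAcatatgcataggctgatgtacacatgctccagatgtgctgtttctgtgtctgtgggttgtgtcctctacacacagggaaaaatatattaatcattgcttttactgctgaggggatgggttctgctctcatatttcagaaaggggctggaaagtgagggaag
Ltbp2 (chr12:84876442-84876741, minus strand): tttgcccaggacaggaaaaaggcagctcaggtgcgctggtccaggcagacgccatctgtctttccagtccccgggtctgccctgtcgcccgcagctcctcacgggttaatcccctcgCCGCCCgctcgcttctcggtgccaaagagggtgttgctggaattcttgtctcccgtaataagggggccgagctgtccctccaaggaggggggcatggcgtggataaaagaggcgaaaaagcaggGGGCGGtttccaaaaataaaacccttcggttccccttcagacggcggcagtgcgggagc
Col6a6 (chr9:105828036-105828335, minus strand): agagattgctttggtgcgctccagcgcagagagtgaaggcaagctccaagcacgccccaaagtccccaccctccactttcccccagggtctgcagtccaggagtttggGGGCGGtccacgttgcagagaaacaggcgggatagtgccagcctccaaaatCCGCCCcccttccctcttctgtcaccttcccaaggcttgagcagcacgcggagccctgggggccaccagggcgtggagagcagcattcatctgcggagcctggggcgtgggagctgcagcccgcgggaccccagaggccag

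In the Col4a2 window the annotated start of Col4a2 was base 251, and that of Col4a1, on the opposite strand, lay 21 bases further on. The window held 3 GC boxes and 1 CCAAT box, and 73.67% of its bases were G or C. The Col4a4 window likewise held the start of Col4a3, 72 bases from that of Col4a4, and none of the motifs. Col3a1 had a TATAAA match 117 bases before its start and a GC content of 37.67%, against a median of 52.67% over all 32851 mouse windows in the table. Ltbp2 and Col6a6 each held 2 GC boxes. A GC box was present in 24 of 40 member windows and in 35.658% of all windows, a CCAAT box in 14 of 40 and 37.408%, and TATAAA in 5 of 40 and 13.616%. Windows were found for 36 members. Those without a window were Col1a1, Col4a3, Col5a2, Col12a1, Col14a1, Col26a1, Dcn, Fn1, Lum, Mmp2, Pdgfrb and Thbs1.

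Levels were compared between genes on the scale of log2 CPM per kilobase of exon, averaged over all libraries. The highest were Rgs5, a regulator of G-protein signalling found in pericytes, at 5.30, and Sparc, a collagen-binding glycoprotein, at 5.12. The basement membrane chains Col4a1 and Col4a2 followed at 4.74 and 4.07. Thbs1, thrombospondin 1, was at 2.71, Col15a1, a chain of basement membrane zones, at 2.63, and Col3a1 at 2.37. Col1a1 and Col1a2, the chains of type I collagen, were lower, at 1.02 and 1.23, and fibronectin (Fn1) was at -1.16. The lowest were Col25a1, a transmembrane collagen, at -3.30 and Col26a1 at -3.15, with medians of 27 and 18 reads per library. All 48 members had at least 2 reads in every library.

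Matrix genes leaned lower in islets of HFD mice when all strains and days were averaged. Averaged over the 9 pairs of strain and day, 14 of the 48 members differed between HFD and RC (limma, adjusted p under 0.05), against 5.47% of all genes. Of these, 13 were lower on HFD, against 3.06% of all genes in that direction, and Ltbp2 was higher, against 2.41%. The median change of the 48 was -0.23 on the log2 scale, beside 0.00 over all 14604 genes, and 44 members lay below 0. In bulk RNA, fewer stromal cells and less RNA per stromal cell cannot be told apart.

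The 13 lower genes came from several groups. Of the 8 fibrillar collagens in the table, 5 fell: Col3a1 (-0.57 ± 0.14, log2 change ± SE), Col1a1 (-0.65 ± 0.18), Col5a1 (-0.55 ± 0.15), Col5a2 (-0.42 ± 0.11) and Col1a2 (-0.42 ± 0.12). Of 8 glycoproteins 4 fell, namely Fn1 (-0.87 ± 0.23), Postn, periostin (-0.44 ± 0.11), Egflam, pikachurin, a laminin-like protein that binds dystroglycan (-0.33 ± 0.06), and Thbs1 (-0.29 ± 0.06). Col4a1 was the 1 of 7 network-forming collagens to fall (-0.24 ± 0.06), Col6a1 the 1 of 5 beaded-filament chains (-0.35 ± 0.11) and Col15a1 the 1 of 4 transmembrane and multiplexin collagens (-0.25 ± 0.07). Rgs5 also fell (-0.17 ± 0.04). No anchoring or fibril-associated collagen of 6 and no proteoglycan of 3 passed the test, and Lum, lumican, was the nearest of these at -0.50 ± 0.16 (limma adjusted p = 0.0564). The Col6a1 call was lost in 40 of 69 refits that each left out 1 library, with changes between -0.41 and -0.32 over all of them.

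Egflam had the lowest p of the members (limma adjusted p = 0.000202). In DBA/2J it was 4.15, 4.30, 4.20 and 4.17 log2 CPM in HFD mice at day 5, against 4.53, 4.54, 4.44 and 4.35 in RC mice. In BALB/cJ at day 13 it was 3.67, 4.17, 4.18 and 4.05 in HFD, against 4.48, 4.24, 4.28 and 4.29 in RC mice. Every HFD library lay below every RC library in both of these pairs. In C57BL/6J the groups overlapped at each day, for example with 2.90, 2.85, 2.63 and 3.45 in HFD and 3.72, 3.44, 2.98 and 3.35 in RC mice at day 5.

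The direction was shared by the pairs more widely than the calls, though unevenly. In single pairs of strain and day 27 to 43 of the 48 members lay below 0. Their medians were -0.41 to -0.06, beside -0.01 to 0.02 over all genes. The fewest were 27 in C57BL/6J day 13 and in BALB/cJ day 13 (median -0.06), and 29 in DBA/2J day 33 (median -0.07). The HFD mean was below the RC mean in all 9 pairs of strain and day for Col3a1, Col5a2, Fn1, Postn, Col4a1, Col6a1 and Egflam. Some of these differences were small, such as -0.03 for Col3a1 and -0.02 for Col6a1 in BALB/cJ day 13. The same count was not made over all genes. Ltbp2, a microfibril-associated protein of the latent TGF-beta binding family, was higher on HFD in 8 of 9 pairs. The exception was DBA/2J day 13, where it was 3.13, 3.00 and 2.98 log2 CPM in HFD, against 3.38, 3.70, 3.52 and 3.42 in RC mice, with every HFD library below the RC ones. Thbs1 was lower in 7 of 9 pairs. The calls depended on the inclusion of day 5, the day at which diet and title number cannot be told apart in C57BL/6J. Without day 5, 1 of the 14 calls was made, on Egflam, beside 20 calls among all genes, and the Col3a1 change was -0.49 (limma adjusted p = 0.305). With limma's array weights for the libraries, 26 members passed, beside 3051 of all genes.

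**Figure D1:**
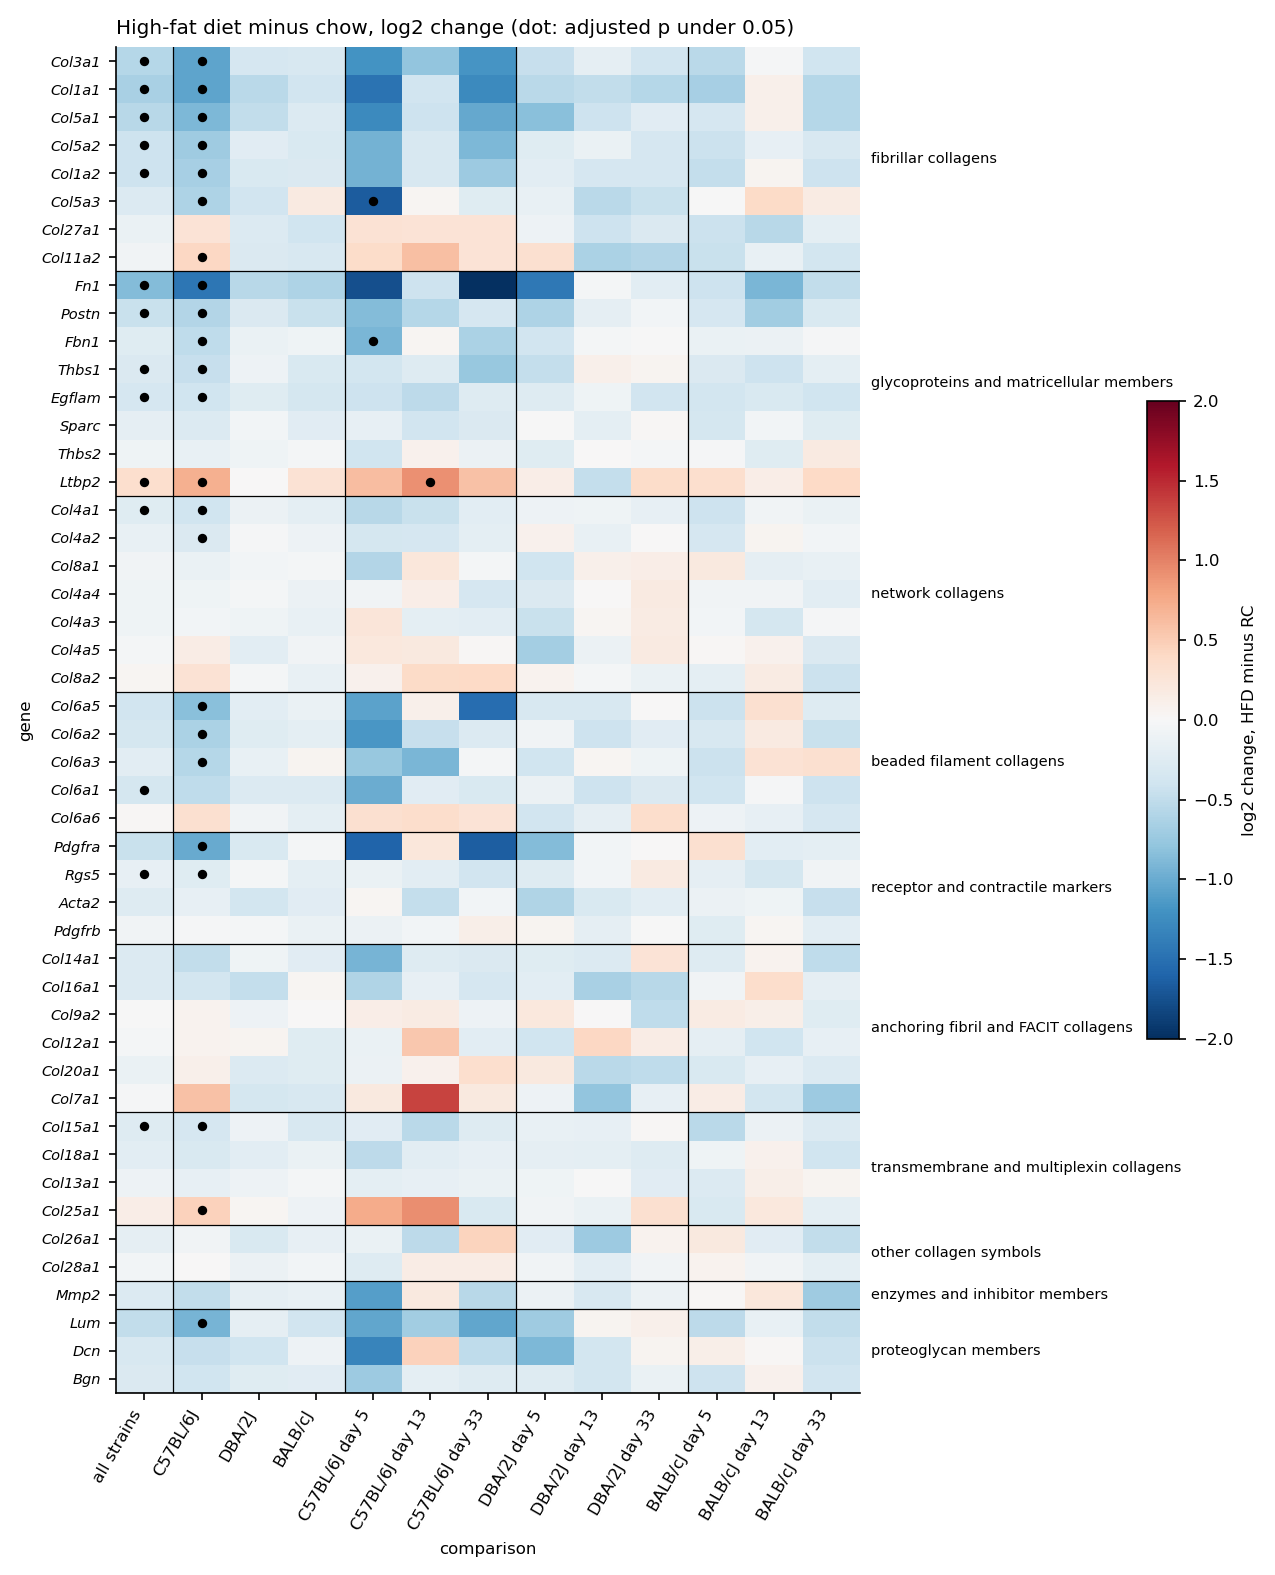
Log2 change, HFD minus RC, of the 48 members (rows, grouped by family) averaged over all strains, within each strain and within each strain and day (columns), with dots where the limma adjusted p was under 0.05. Blue cells (lower on HFD) fill most of the fibrillar and beaded-filament rows, Ltbp2 is mostly red, and the colours stop at 2 in either direction, which Fn1 in C57BL/6J day 33 passes at -2.14.

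Within single strains, members passed the test in C57BL/6J. Averaged over its 3 days, 23 of 48 members differed between 12 HFD and 11 RC libraries, against 14.6% of all genes. Of these 20 were lower on HFD (background 8.05%), and Ltbp2, Col25a1 and Col11a2 were higher (background 6.5%). The median change of the members was -0.32, beside -0.01 over all genes.

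Among fibrillar collagens, 6 of 8 fell in C57BL/6J. Col3a1 levels at day 5 were 4.43, 5.17, 3.78 and 5.17 log2 CPM in HFD mice, against 6.25, 6.05, 5.11 and 5.92 in RC mice. At day 13 Col3a1 was 5.39, 5.33, 3.98 and 3.45 in HFD mice, against 5.19, 5.83, 5.26 and 5.03 in RC mice, and at day 33 4.26, 4.07, 4.72 and 3.61 in HFD mice, against 4.45, 5.15 and 6.43 in RC mice. The lowest library at each day was an HFD library, and in each pair 1 or more HFD libraries reached the RC range. The Col3a1 change over the 3 days was -1.05 ± 0.24 (limma adjusted p = 0.00188).

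Col1a1 moved with it. Its levels were 1.98, 3.51, 1.51 and 3.26 log2 CPM in HFD and 4.60, 4.75, 2.81 and 3.99 in RC mice at day 5, and 4.06, 3.33, 2.45 and 1.83 in HFD and 3.25, 3.83, 3.12 and 3.03 in RC mice at day 13, where the highest library was an HFD one. At day 33 they were 2.02, 2.06, 3.12 and 1.01 in HFD and 2.40, 3.26 and 4.33 in RC mice, again with overlap. Col1a1 fell by 1.05 (SE 0.31, limma adjusted p = 0.0159), and without C57BL/6J RC day 33 replicate 4 the change was -0.88 and no longer passed. Col5a1, Col5a2, Col5a3 and Col1a2 fell by between 0.62 and 0.90. For Col5a3 the call was lost without C57BL/6J RC day 33 replicate 4 (-0.58), HFD day 5 replicate 1 (-0.57) or RC day 5 replicate 1 (-0.54). Col11a2, a fibrillar chain best known from cartilage, rose (0.41 ± 0.15, limma adjusted p = 0.0493), with 2.23 to 3.75 log2 CPM in HFD and 1.82 to 3.09 in RC libraries.

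Fibronectin had the largest fitted change and the widest spread of the members in C57BL/6J. Fn1 levels at day 5 were 1.21, 2.49, 2.04 and 2.96 log2 CPM in HFD, against 2.30, 5.35, 3.98 and 4.12 in RC mice. At day 13 they were 1.58, 2.04, 1.80 and 0.07 in HFD, against 2.22, 1.71, 1.26 and 1.99 in RC mice. At day 33 they were 1.35, 0.53, 0.96 and 0.86 in HFD, against 1.01, 1.26 and 6.93 in RC mice, so 1 RC library stood far above both others. This was replicate 4, whose macrophage markers summed to 287.7 CPM. The change over days was -1.44 ± 0.39 (limma adjusted p = 0.00914), and without that library it was -0.80 (limma adjusted p = 0.0756).

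**Figure D2:**
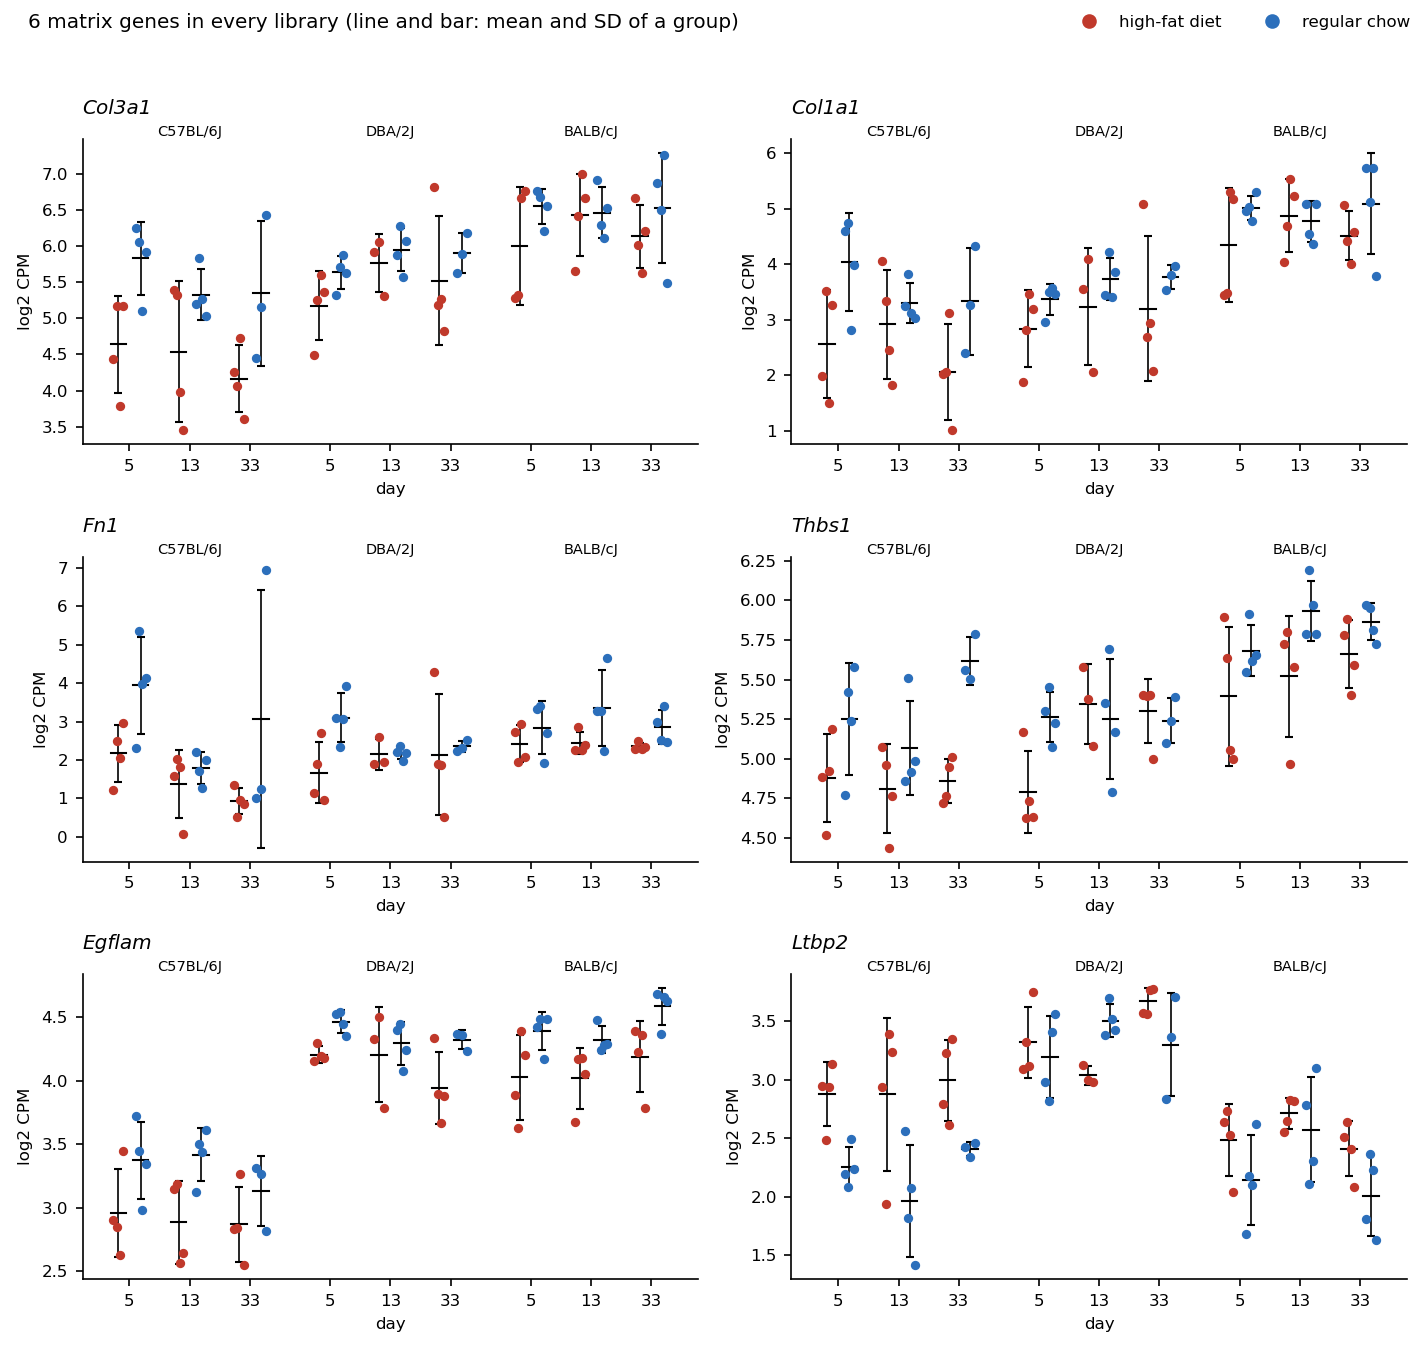
Levels in log2 CPM of 6 members in every library, by strain and day, with HFD (red) left of RC (blue) and bars for the mean and SD of each group. C57BL/6J RC day 33 has 1 Fn1 library at 6.93 beside others at 1.01 and 1.26, and Ltbp2 is the panel in which HFD libraries lie higher in C57BL/6J.

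Other glycoproteins spread less. Thbs1 at day 33 was 4.72, 4.76, 4.95 and 5.01 log2 CPM in HFD, against 5.56, 5.50 and 5.79 in RC mice, with no overlap, and its change over days was -0.46 ± 0.11 (limma adjusted p = 0.00258). Within day 33 alone this difference of -0.76 ± 0.19 had a limma adjusted p of 0.0926. Egflam changed by -0.40 ± 0.10, Postn by -0.59 ± 0.18 (call lost in 5 of 23 refits without 1 library) and Fbn1, fibrillin 1, by -0.51 ± 0.15. Fbn1 at day 5 was 1.96, 2.52, 1.98 and 2.36 in HFD, against 2.94, 2.93, 3.21 and 3.41 in RC mice, again without overlap, whereas at day 13 the groups overlapped. Without C57BL/6J RC day 33 replicate 4 the Fbn1 change over days was -0.41 and did not pass. Another annotated gene, Gm9913, shares 20.14% of the exon length of Fbn1 on the opposite strand. Sparc, with 5.71 to 6.66 log2 CPM in HFD and 6.23 to 6.85 in RC libraries, had a change of -0.28 ± 0.11 that did not pass (limma adjusted p = 0.0701).

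In the basement membrane, both chains of the common type IV trimer fell: Col4a1 changed by -0.40 ± 0.10 and Col4a2 by -0.29 ± 0.10. Col4a1 levels at day 5 were 6.97, 7.22, 6.63 and 6.85 log2 CPM in HFD, against 7.50, 7.69, 7.30 and 7.40 in RC mice, and the groups did not overlap. The minor chains Col4a3, Col4a4 and Col4a5 and the type VIII chains Col8a1 and Col8a2 did not pass, with changes of -0.13 to 0.29. Of the beaded-filament chains Col6a2 (-0.63 ± 0.20, call lost in 5 of 23 such refits), Col6a3 (-0.56 ± 0.15) and Col6a5 (-0.84 ± 0.27, median 18 reads per C57BL/6J library) fell. Col6a1 had a change of -0.51 ± 0.19 (limma adjusted p = 0.0619), with 1.78 to 3.36 log2 CPM in HFD and 2.53 to 3.77 in RC libraries.

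The stromal cell markers among the members did not move as 1 group. Lum fell (-0.92 ± 0.28), as did Pdgfra, the PDGF receptor of fibroblasts (-1.001 ± 0.35), whose median was 21 reads in C57BL/6J. The pericyte gene Rgs5 fell by 0.25 (SE 0.08). Pdgfrb, the PDGF receptor of pericytes, changed by -0.02 ± 0.10 and Acta2, smooth muscle actin, by -0.16 ± 0.23, and neither passed. The other proteoglycans Dcn, decorin (-0.46 ± 0.26), and Bgn, biglycan (-0.39 ± 0.20), and the gelatinase Mmp2 (-0.49 ± 0.28) did not pass either.

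Ltbp2 went against the rest. At day 5 it was 2.95, 2.49, 2.94 and 3.13 log2 CPM in HFD, against 2.20, 2.08, 2.495 and 2.24 in RC mice. At day 13 it was 2.94, 1.94, 3.39 and 3.24 in HFD, against 2.56, 1.82, 2.08 and 1.42 in RC mice, and at day 33 2.80, 3.23, 2.62 and 3.35 in HFD, against 2.42, 2.34 and 2.46 in RC mice. The groups did not overlap at day 33, and at days 5 and 13 a single HFD library reached the RC range. The change was 0.71 ± 0.14 (limma adjusted p = 0.000411), the lowest p of the members in this strain. It was 0.75 without day 5 and still passed. The gene shares 9.34% of its exon length with D030025P21Rik on the opposite strand, and the strand setting of the counting is not given in the sources used here. Col25a1 also rose (0.46 ± 0.16, limma adjusted p = 0.0422), at 0.21 to 1.27 log2 CPM in HFD and -0.35 to 0.98 in RC libraries, and the call was lost in 15 of 23 refits that each left out 1 library.

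Day 5 again mattered to the count. Without it, 2 of the 48 members passed in C57BL/6J, Thbs1 and Ltbp2, beside 387 of all genes. Col3a1 then had a change of -0.98 (limma adjusted p = 0.0588), Fn1 of -1.28, Col6a3 of -0.47 and Egflam of -0.40, below 0 as with all days. Without day 13, an alternative added after seeing the data, the count was 11, beside 739 of all genes. Leaving out single libraries gave 13 to 26 calls, the fewest without C57BL/6J RC day 5 replicate 1. With the title number as a covariate 1 member passed, beside 31 of all genes. The Fn1 change was then 1.05, the opposite sign, and those of Col3a1 (-1.52), Col1a1 (-1.74), Col6a3 (-1.47), Col4a1 (-0.84) and Egflam (-0.82) stayed below 0 without passing. With voom on the reads recovered from the table, 14 members passed, beside 2462 of all genes. In single days, 2 members passed at day 5, both lower, against 1.87% of all genes in either direction and 1.16% lower, 1 at day 13 against 1.04%, and none at day 33, when no gene passed and 12 members had an unadjusted p under 0.05 (2180 of all genes). Col5a3, a chain of type V collagen, fell at day 5 (-1.66 ± 0.33, limma adjusted p = 0.00349), with -0.30, 0.79, -0.49 and 0.50 log2 CPM in HFD, against 2.48, 1.98, 0.91 and 1.77 in RC mice, and no overlap. Fbn1 fell too (-0.92 ± 0.25), though 7 of 8 refits without 1 library lost that call, and Col6a2 was next at -1.16 ± 0.34 (limma adjusted p = 0.0612). Without the 4 libraries that stood apart by over 1.5 times in marker sums, a set chosen after the data were seen, 11 members fell at day 5, against 294 of all genes in either direction.

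At day 13 Ltbp2 rose (0.91 ± 0.23), and 6 of 8 refits without 1 library lost the call. Col6a3, a chain of type VI collagen, was 3.75, 3.40, 3.18 and 2.97 log2 CPM in HFD, against 4.005, 4.05, 4.42 and 4.46 in RC mice (limma adjusted p = 0.0599). Col25a1 was 0.74, 1.001, 1.27 and 1.12 in HFD, against 0.57, -0.10, -0.24 and 0.18 in RC mice (limma adjusted p = 0.0603). Both were near the threshold without passing it. At day 33 the nearest after Thbs1 were Col6a5 (-1.53 ± 0.50) and Fn1 (-2.14 ± 0.71), neither of which passed.

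In DBA/2J no member passed the limma test over the 3 days, nor did any of the 14604 genes, and 2 members had an unadjusted p under 0.05 (599 of all genes). The signs leaned the same way, with 45 of 48 members below 0 and a median of -0.20, beside 0.01 over all genes. Col3a1 was 4.49 to 6.82 log2 CPM (median 5.31) in HFD and 5.33 to 6.27 (median 5.88) in RC libraries. Its highest HFD library was day 33 replicate 1, the one with high pericyte markers, which was also the highest DBA/2J library for Col1a1, at 5.09. Without it 21 members passed over all strains, the most in 69 refits that each left out 1 library (12 to 21). The count of all genes in that refit is not given here. Fn1 was 0.53 to 4.29 log2 CPM (median 1.90) in HFD and 1.98 to 3.92 (median 2.34) in RC libraries, and Col6a1 2.28 to 4.78 (median 3.23) in HFD and 2.83 to 4.14 (median 3.51) in RC libraries. Both ranges were wider on HFD. Col4a1 was 7.70 to 8.24 (median 7.92) in HFD and 7.81 to 8.33 (median 8.04) in RC libraries, and Sparc 7.08 to 8.04 (median 7.60) in HFD and 7.31 to 7.97 (median 7.57) in RC libraries. Within single days no member passed in DBA/2J, where the background was 0.548% at day 5, 0% at day 13 and 0.0205% at day 33. The nearest were Col4a3 (-0.44 ± 0.16), Col4a5 (-0.68 ± 0.26) and Thbs1 (-0.47 ± 0.18) at day 5, with limma adjusted p of 0.0851 to 0.0952. At that day 7 members had an unadjusted p under 0.05 (3895 of all genes), at day 13 3 did (599 of all genes) and at day 33 4 did (1224 of all genes).

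In BALB/cJ no member passed either, against 0.151% of all genes in either direction, 0.11% higher and 0.0411% lower, with 10 members at an unadjusted p under 0.05 (1523 of all genes). The median was -0.20, beside 0.00 over all genes, and 43 of 48 lay below 0. Egflam was nearest, at -0.35 ± 0.10 (limma adjusted p = 0.118), with 3.63 to 4.39 log2 CPM in HFD and 4.17 to 4.68 in RC libraries. Thbs1 followed at -0.30 ± 0.10 and Col15a1 at -0.31 ± 0.11. Fn1 was 1.95 to 2.95 log2 CPM (median 2.32) in HFD and 1.92 to 4.65 (median 3.14) in RC libraries. Col3a1 at day 33 was 6.67, 6.02, 5.63 and 6.21 in HFD, against 6.87, 6.502, 7.25 and 5.48 in RC mice. All of these ranges overlapped. Ltbp2 was 2.05 to 2.83 (median 2.60) in HFD and 1.63 to 3.10 (median 2.20) in RC libraries, a change of 0.29 ± 0.13 that did not pass. At day 5 Col1a1 split within the HFD group, at 3.44 and 3.48 in replicates 1 and 2 and 5.30 and 5.18 in replicates 3 and 4, whose title numbers were higher, against 4.96, 5.03, 4.78 and 5.30 in RC mice. Acinar markers summed to 2754 and 1704 CPM in replicates 1 and 2 and to 46950 and 25780 CPM in replicates 3 and 4, against 1068 to 8207 CPM in RC mice. The part of the title numbers and of acinar tissue in this split was not tested. Within single days no member passed, against 0.315% of all genes at day 5, 0.00685% at day 13 and 0% at day 33, with 3, 5 and 1 members at an unadjusted p under 0.05 (1579, 2140 and 669 of all genes). Without the libraries apart in marker sums 1 member fell over the 3 days, beside 48 of all genes.

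A call in C57BL/6J and none elsewhere did not amount to a difference between strains. The diet effect of DBA/2J minus that of C57BL/6J passed for no member, against 1.11% of all genes (0.651% above 0, 0.459% below), and 7 members had an unadjusted p under 0.05 (2637 of all genes). For BALB/cJ minus C57BL/6J it was none, against 1.27%, with 9 unadjusted (2507 of all genes), and for BALB/cJ minus DBA/2J none of the members and none of the genes, with 0 members and 472 genes unadjusted. The nearest were Col11a2 in BALB/cJ minus C57BL/6J (-0.73 ± 0.21, limma adjusted p = 0.052) and Ltbp2 in DBA/2J minus C57BL/6J (-0.70 ± 0.20, limma adjusted p = 0.0531). Col11a2 had a log2 change of -0.32 ± 0.14 in BALB/cJ and -0.30 ± 0.15 in DBA/2J, beside its rise in C57BL/6J. For Col3a1 the difference was 0.73 ± 0.33 in BALB/cJ minus C57BL/6J and 0.71 ± 0.34 in DBA/2J minus C57BL/6J. Without the libraries apart in marker sums, 5 members passed in BALB/cJ minus C57BL/6J, beside 496 of all genes. Both comparisons with C57BL/6J share its libraries.

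Some of the genes that make and modify collagen also fell, on lists that were chosen with earlier results of these data known. Over all strains, 6 of 20 non-member genes of collagen folding and secretion fell and none rose, against 3.06% of all genes lower. They included P4ha1, a subunit of prolyl 4-hydroxylase (-0.26 ± 0.06), Plod2 (-0.29 ± 0.07) and Plod1 (-0.19 ± 0.05), both lysyl hydroxylases, and Serpinh1, the collagen chaperone HSP47 (-0.30 ± 0.08). In C57BL/6J 8 of these 20 fell, against 8.05% of all genes, with P3h2, a prolyl 3-hydroxylase, at -0.56 ± 0.14. Of 9 processing and crosslinking genes 1 fell, Loxl2, a lysyl oxidase (-0.20 ± 0.04). Of 17 basement membrane genes other than type IV collagen 4 fell, the laminin chains Lama3 (-0.19 ± 0.04), Lamb1 (-0.17 ± 0.04) and Lama4 (-0.17 ± 0.04) and the linker nidogen 2, Nid2 (-0.16 ± 0.05).

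Of 17 small proteoglycan and matricellular genes outside the members, 5 fell over all strains, among them Tnc, tenascin C (-0.77 ± 0.17), Ccn3 (-0.38 ± 0.08), Matn2, matrilin 2 (-0.32 ± 0.08), and Aspn, asporin (-0.25 ± 0.07). None of the 15 elastic fibre genes passed. Of 18 proteases and inhibitors 1 fell, Adamts4 (-0.46 ± 0.11), and 1 of 20 receptors, the heparan sulphate proteoglycan Sdc4 (-0.14 ± 0.04). Both shares lay near the 3.06% of all genes lower over all strains. In C57BL/6J, where 8.05% of all genes were lower, 4 of the 20 receptors fell. They included the integrin chains Itgb1 (-0.19 ± 0.04), Itgav (-0.34 ± 0.08) and Itga1 (-0.23 ± 0.08). Of 19 genes of TGF-beta and PDGF signalling none passed over all strains and 1 in C57BL/6J, the repressor Ski (-0.15 ± 0.05). No gene of these 8 lists rose on HFD in either comparison.

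Markers of other cells were set beside the C57BL/6J difference, in which 8.05% of all genes were lower on HFD and 6.5% higher. Macrophage markers summed to 100.3 to 156.1 CPM in HFD and 126.4 to 287.7 CPM in RC libraries, and 2 of 12 fell, Lyz2 (-0.98 ± 0.29) and Adgre1 (-0.38 ± 0.12). Endothelial markers summed to 541.8 to 721.7 CPM in HFD and 582.4 to 719.6 CPM in RC libraries, with 2 of 12 lower, Pecam1 (-0.22 ± 0.07) and Emcn (-0.19 ± 0.07). The 6 fibroblast and stellate cell markers that are no members summed to 63.67 to 119.1 CPM in HFD and 90.2 to 140.1 CPM in RC libraries, and Dpt, dermatopontin, fell (-0.86 ± 0.22). This sum is mostly Gsn, at a mean of 6.54 log2 CPM over all libraries, with the other markers between -0.05 (Pi16) and 2.26 (Thy1). The 8 pericyte and smooth muscle markers that are no members summed to 51.18 to 80.76 CPM in HFD and 48.83 to 86.08 CPM in RC libraries, and none passed (median change 0.08). Acinar markers summed to 293.4 to 5236 CPM in HFD and 409.4 to 8684 CPM in RC libraries, with 1 of 15 higher, Try5 (1.43 ± 0.49), and a median change of 0.73 over the 15. Of the ductal (9 genes), Schwann cell (7), beta cell (10) and alpha cell (6) markers 1 each fell, and of the adipocyte (2) and mesothelial (3) markers none passed. The part of these cells in the matrix result was not tested. With macrophage and endothelial scores as covariates, 3 members passed in C57BL/6J (1 lower), beside 990 of all genes, and 4 passed over all strains (3 lower), beside 429 of all genes.

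**Figure D3:**
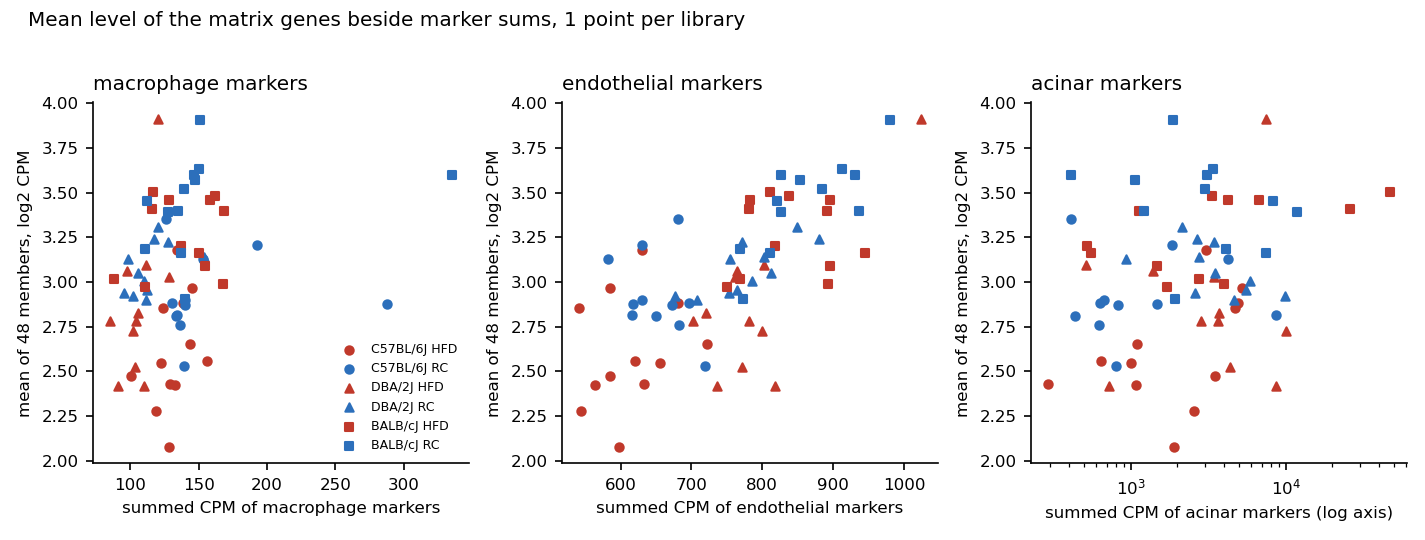
Mean log2 CPM of the 48 members in each library against the summed CPM of macrophage, endothelial and acinar markers, with HFD in red, RC in blue and a symbol per strain. The C57BL/6J libraries (circles) sit at 541.8 to 721.7 CPM of endothelial markers, and those of the other strains reach 1024 CPM.

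On chow, 37 of the 48 matrix genes were higher in BALB/cJ than in C57BL/6J islets, and 25 were higher than in DBA/2J islets. In BALB/cJ minus C57BL/6J 41 of 48 members differed, against 56.3% of all genes, and in BALB/cJ minus DBA/2J 30 did, against 35%. In DBA/2J minus C57BL/6J 26 differed, a share of 54.2% beside 54.5% of all genes. In BALB/cJ minus C57BL/6J, 37 members were higher, against 27.7% of all genes, and 4 were lower, against 28.6%. In DBA/2J minus C57BL/6J 19 were higher (background 26.9%) and 7 lower (27.6%), and in BALB/cJ minus DBA/2J 25 were higher (17.4%) and 5 lower (17.7%). Without day 5, 19 members differed in BALB/cJ minus DBA/2J, 14 of them higher, beside 4011 of all genes. The median difference of the members was 0.71 for BALB/cJ minus C57BL/6J, 0.37 for DBA/2J minus C57BL/6J and 0.46 for BALB/cJ minus DBA/2J.

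The fibrillar collagens followed this order. All 8 were higher in BALB/cJ than in C57BL/6J on chow, and 5 were higher than in DBA/2J, whereas in DBA/2J minus C57BL/6J 2 were higher. Col1a1 differed by 1.40 ± 0.31 in BALB/cJ minus C57BL/6J and 1.34 ± 0.31 in BALB/cJ minus DBA/2J, and by 0.06 ± 0.32 in DBA/2J minus C57BL/6J, which did not pass. Lum followed the same order, at 1.38 ± 0.28, 1.18 ± 0.28 and 0.20 ± 0.29 in those 3 comparisons. All 3 proteoglycans were higher in BALB/cJ than in either other strain, and so were Col6a1, Col6a2 and Col6a3. Without BALB/cJ RC day 33 replicate 3 or DBA/2J RC day 33 replicate 1 the Col6a2 difference between BALB/cJ and DBA/2J, 0.58, lost its call.

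The fibril-associated and anchoring collagens split. Col12a1 was lower in DBA/2J than in C57BL/6J (-0.56 ± 0.23) and higher in BALB/cJ than in DBA/2J (1.30 ± 0.23). Col9a2, a chain of type IX collagen that sits on cartilage fibrils, had the same pattern (-0.31 ± 0.12 and 0.67 ± 0.12), and Col16a1 was lower in DBA/2J than in C57BL/6J (-1.04 ± 0.24). Col14a1 and Col20a1 were higher in both BALB/cJ (1.11 ± 0.18 and 1.11 ± 0.13) and DBA/2J (0.54 ± 0.18 and 0.67 ± 0.13) than in C57BL/6J. Among other members, the gelatinase Mmp2 was higher than in C57BL/6J in BALB/cJ (1.40 ± 0.28) and DBA/2J (1.20 ± 0.29), as were Postn, Pdgfrb and Rgs5. Acta2 was lower in BALB/cJ than in C57BL/6J (-0.62 ± 0.23).

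Basement membrane and adhesion genes had another order. Sparc on chow was 6.86 to 7.76 log2 CPM in BALB/cJ, 7.31 to 7.97 in DBA/2J and 6.23 to 6.85 in C57BL/6J libraries. It was higher by 1.13 (SE 0.11) in DBA/2J minus C57BL/6J and differed by -0.35 (SE 0.11) in BALB/cJ minus DBA/2J. The basement membrane chains Col4a1, Col4a2, Col4a3 and Col4a4 were higher in DBA/2J than in C57BL/6J by 0.70 to 0.86. Col4a5 was lower than in C57BL/6J in both DBA/2J (-0.56 ± 0.16) and BALB/cJ (-0.52 ± 0.15). Of the 4 higher chains, Col4a3 (-0.33 ± 0.10) and Col4a4 (-0.38 ± 0.11) were also lower in BALB/cJ than in DBA/2J, and Col4a1 and Col4a2 did not pass there. Egflam was higher in both DBA/2J (1.05 ± 0.10) and BALB/cJ (1.12 ± 0.10) than in C57BL/6J, with 4.08 to 4.54 log2 CPM in DBA/2J, 4.17 to 4.68 in BALB/cJ and 2.82 to 3.72 in C57BL/6J chow libraries. Ltbp2 was high in DBA/2J alone, by 1.12 ± 0.14 over C57BL/6J, while BALB/cJ differed from DBA/2J by -1.09 ± 0.14 and from C57BL/6J by 0.03 ± 0.14. Fn1 passed in none of the 3 comparisons.

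**Figure D4:**
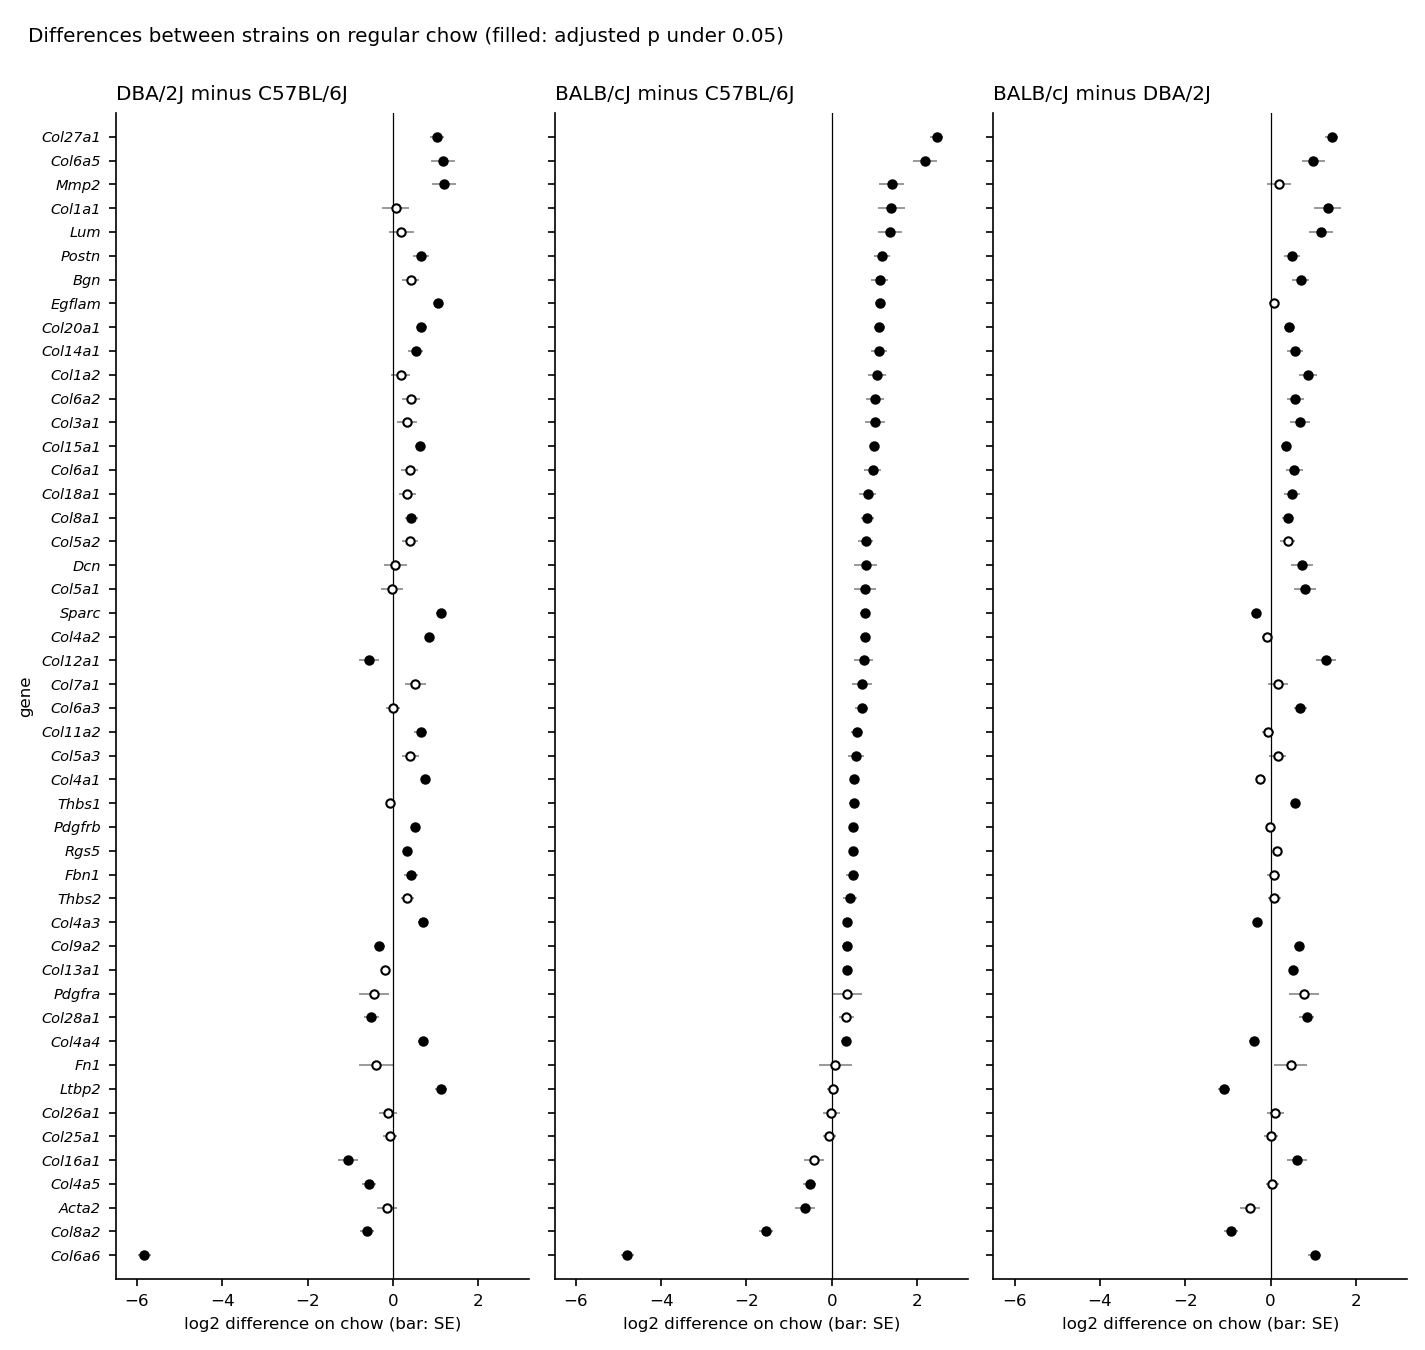
Log2 differences between strains on chow for each member (points, bars for the SE), filled where the limma adjusted p was under 0.05 and ordered by BALB/cJ minus C57BL/6J. Most points lie right of 0 in the panels of BALB/cJ, and Col6a6 lies at -5.83 in DBA/2J minus C57BL/6J and -4.79 in BALB/cJ minus C57BL/6J.

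The largest strain difference was in Col6a6, an alpha chain of type VI collagen. Col6a6 on chow was 1.24 to 3.00 log2 CPM in BALB/cJ and 0.78 to 1.81 in DBA/2J libraries, against 6.81 to 7.28 in C57BL/6J libraries. Over both diets these were 49 to 167 reads per library in BALB/cJ and 28 to 130 in DBA/2J, against 2292 to 5141 in C57BL/6J, so no library of either other strain came near C57BL/6J. The difference was -5.83 ± 0.15 in DBA/2J minus C57BL/6J (limma adjusted p = 9.71e-40), -4.79 ± 0.15 in BALB/cJ minus C57BL/6J and 1.04 ± 0.15 in BALB/cJ minus DBA/2J. Its promoter window, printed above, is that of the reference genome, which is built on C57BL/6J.

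Within C57BL/6J, Col6a6 did not fall on HFD as some other type VI chains did, and a difference from those chains was not tested. At day 5 it was 7.46, 7.19, 7.45 and 7.11 log2 CPM in HFD, against 6.97, 6.81, 7.16 and 6.97 in RC mice. The HFD median lay above the highest RC library at every day, while Col6a2, Col6a3 and Col6a5 fell, but the change of 0.32 ± 0.15 did not pass (limma adjusted p = 0.134). Its neighbour Col6a5, on the same strand of chromosome 9, was lowest in C57BL/6J, at 0.87 to 3.19 log2 CPM in BALB/cJ and 0.64 to 1.71 in DBA/2J, against -1.38 to 1.503 in C57BL/6J chow libraries. Col6a5 differed by 1.18 ± 0.28 in DBA/2J minus C57BL/6J and by 2.19 ± 0.27 in BALB/cJ minus C57BL/6J.

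Col27a1, a fibrillar collagen of cartilage and developing tissue, and Col8a2, a chain of type VIII collagen, also differed between all 3 strains. Col27a1 on chow was 5.66 to 7.10 log2 CPM in BALB/cJ, 4.61 to 5.41 in DBA/2J and 3.46 to 4.52 in C57BL/6J libraries, and the ranges did not overlap. It was higher by 2.46 (SE 0.16) in BALB/cJ minus C57BL/6J and by 1.03 (SE 0.16) in DBA/2J minus C57BL/6J. Col8a2 ran the other way, at -1.58 to -0.27 log2 CPM in BALB/cJ, -0.31 to 0.42 in DBA/2J and 0.28 to 1.01 in C57BL/6J libraries, neighbouring ranges overlapping at their edges, with medians over both diets of 9 reads in BALB/cJ, 17 in DBA/2J and 36 in C57BL/6J.

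Marker sums differed between strains too. On chow 10 of 12 endothelial markers were higher and 1 lower in DBA/2J minus C57BL/6J, and 9 were higher in BALB/cJ minus C57BL/6J. In these comparisons 26.9% and 27.7% of all genes were higher. The endothelial sum on chow was 768.6 to 979.8 CPM in BALB/cJ, 676.2 to 880 CPM in DBA/2J and 582.4 to 719.6 CPM in C57BL/6J libraries. Of 6 fibroblast markers that are no members 5 were higher in BALB/cJ minus C57BL/6J and none in DBA/2J minus C57BL/6J. Of 12 macrophage markers, 7 were lower in DBA/2J minus C57BL/6J and 5 in BALB/cJ minus C57BL/6J, against 27.6% and 28.6% of all genes lower. The part of these cells in the strain differences was not tested. With macrophage and endothelial scores as covariates 11 members passed in BALB/cJ minus C57BL/6J, 6 of them higher, beside 3590 of all genes, and 12 in DBA/2J minus C57BL/6J, 5 of them higher, beside 3372 of all genes. With the title number as a covariate 14 passed in BALB/cJ minus C57BL/6J, beside 5309 of all genes, and 11 in DBA/2J minus C57BL/6J, beside 5370.

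Neighbouring genes that share a start moved together, and so did some pairs without a shared start. Col4a1 ranged over 1.79 and Col4a2 over 2.09 log2 CPM across the 69 libraries, while the difference of Col4a1 minus Col4a2 within a library stayed between 0.55 and 1.13 (SD 0.14). Their exons share 22 bases on opposite strands. The Col4a3 minus Col4a4 difference was 0.20 to 1.28 (SD 0.253), beside ranges of 1.68 and 1.94 for the single genes, and both rest on medians of 111 and 68 reads per library. For Col6a1 and Col6a2, which lie on 1 strand of chromosome 10 with separate starts, it was -0.39 to 0.51 (SD 0.18). For Col6a6 minus Col6a5 the difference ran between -0.68 and 9.51 (SD 3.68), which spans the strain difference in Col6a6. Within strains its SD was 1.05 in C57BL/6J, 0.46 in DBA/2J and 0.46 in BALB/cJ. Libraries share depth and stromal content, so these are descriptions.

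**Figure D5:**
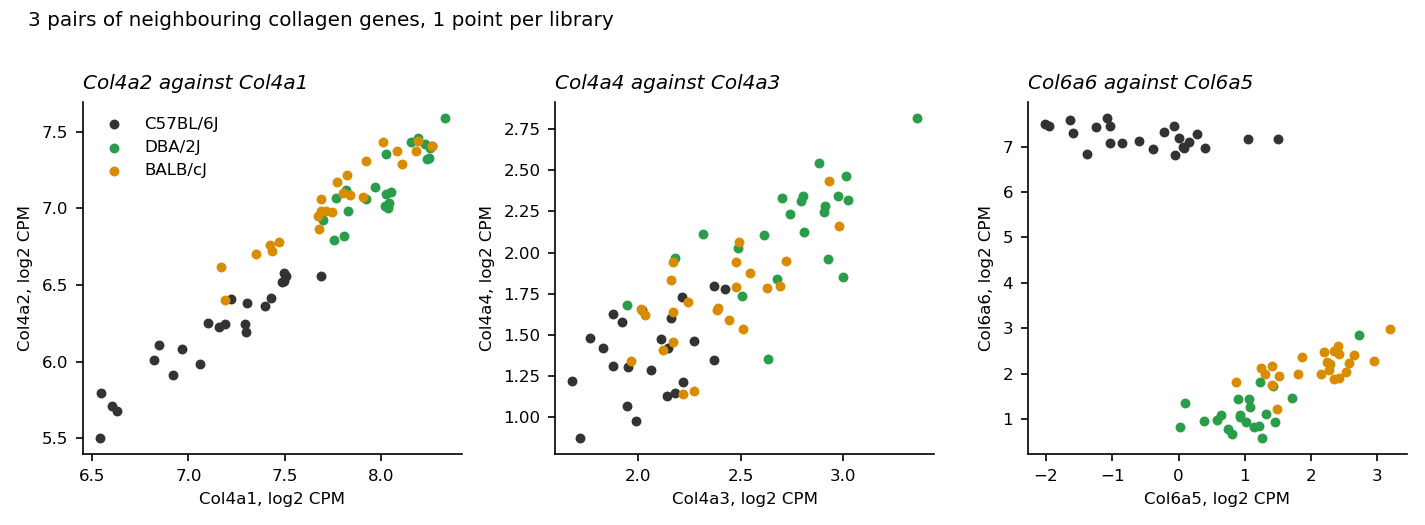
Levels in log2 CPM of 3 pairs of neighbouring collagen genes, 1 point per library and coloured by strain. Col4a2 follows Col4a1 along 1 line, with a difference of 0.55 to 1.13 throughout, and Col6a6 separates C57BL/6J, at 6.81 to 7.64, from the other strains at any level of Col6a5.

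Few members passed the test of time within the experiment. Day 33 against day 5, averaged over both diets, gave 1 call in C57BL/6J against 0.623% of all genes, 2 in DBA/2J against 10.2%, and none in BALB/cJ against 1.13%, where 5 members had an unadjusted p under 0.05 (1693 of all genes). In C57BL/6J Col20a1, a fibril-associated collagen, fell (-0.74 ± 0.16, limma adjusted p = 0.012), and without C57BL/6J RC day 33 replicate 4 the change was -0.63 and did not pass. In this strain 38 of 48 members lay below 0, with a median of -0.30 beside 0.00 over all genes, and 11 had an unadjusted p under 0.05 (1754 of all genes). With macrophage and endothelial scores as covariates 16 members passed, all lower, beside 223 of all genes, and with array weights 6 passed, all lower, beside 1402 of all genes. Col20a1 was 2.40, 2.79, 2.05 and 1.48 log2 CPM in HFD and 1.78, 2.37 and 1.40 in RC mice at day 33, against 2.74, 2.94, 2.46 and 2.67 in HFD and 2.71, 2.90, 2.48 and 3.15 in RC mice at day 5.

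In DBA/2J the paired type IV genes Col4a3 and Col4a4 rose, by 0.44 (SE 0.12) and 0.42 (SE 0.14). Col4a3 was 3.36, 2.79, 2.90 and 2.97 log2 CPM in HFD and 2.74, 2.92 and 2.88 in RC mice at day 33, against 2.63, 2.18, 1.95 and 2.32 in HFD and 2.62, 2.505, 2.91 and 2.81 in RC mice at day 5. Without DBA/2J HFD day 5 replicate 3 the Col4a3 change was 0.38 and did not pass. The HFD libraries of the 2 days did not overlap, while the RC ones did. Col4a4 had limma adjusted p = 0.0455, and its call was lost in 9 of 15 refits that left out 1 library. A share of 2 in 48 lay below the 10.2% of all genes.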

How the data were processed

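Islets of 72 mice were sequenced, and 69 libraries had values. Per the labels' protocols, libraries were made with a stranded mRNA kit and read as single 125-base reads. Per the submitters' processing notes, STAR 2.5.3a, HTSeq 0.9.1, edgeR and the build GRCm38 were used. The deposited values were log2 CPM of 14604 genes, with a prior count near 2 by the values, since the lowest value matched 0.0862 CPM. CPM summed to between 911117 and 1095153 over the libraries, so the values were not scaled to each library's total in these genes alone. Every value tested (under 2000 reads, tolerance 0.05) gave a whole number of reads, from which the depths were taken.

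From there limma 3.58.1 in R 4.3.3 was fitted with 1 mean for each of 18 groups and a trended variance, two-sided, with Benjamini-Hochberg adjustment over all genes within each comparison and a threshold of 0.05. The scripts were tested on simulated data. Replicates are separate mice. No filter or pseudocount was added. All 48 members matched GENCODE M21, which gave exon lengths and overlaps. Title numbers recur between diets, and their meaning is not given. The members and gene lists were chosen with earlier results of these data known. Every member could be named, with library values for the 3 of lowest p in each comparison with a call, Fn1, Col1a1, Col3a1, Col4a1, Col6a1, Sparc and members with an outlying library, and up to 4 called genes per further list. Alternatives were array weights, no trend, median centring, a low-level filter, log2(CPM + 1), voom on recovered reads, covariates, 1 strain at a time and leaving out days or libraries. The voom fit used each library's total of recovered reads, without the scaling of the deposited values. Leaving out day 13, day 33 or the libraries apart in marker sums, and a block by title number, were added after seeing the data.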

Additional observations from a re-analysis of the deposited data

Results flagged for a closer look

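In 14 of 315 groups of 4 libraries, tested over 21 named members, 1 library lay far from the other 3 by Dixon's test at 95%. Chance flags about 1 in 20 groups. All values are log2 CPM.

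In DBA/2J HFD day 33 replicate 1, the library with the high pericyte markers, Sparc was 8.043 against 7.331 to 7.433 in the others, and Col4a4 was 2.819 against 2.249 to 2.346. In DBA/2J HFD day 5 replicate 1, Fbn1 was 2.145 against 2.917 to 2.983 and Postn 1.897 against 2.867 to 2.997. In BALB/cJ HFD day 33 replicate 1, Col25a1 was 0.869 against -0.095 to 0.059 and Col6a6 2.273 against 1.948 to 1.996.

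Among single low values, Col27a1 was 5.655 in BALB/cJ RC day 13 replicate 4, the library with the high macrophage markers, against 6.743 to 6.913. Col6a2 was 3.383 in BALB/cJ HFD day 13 replicate 1, against 4.241 to 4.384, and Col6a6 was 6.986 in C57BL/6J HFD day 13 replicate 2, against 7.427 to 7.492. In DBA/2J, Thbs1 was 4.995 in HFD day 33 replicate 4, against 5.393 to 5.404, Sparc was 7.641 in RC day 13 replicate 4, against 7.948 to 7.965, and Col1a1 was 2.955 in RC day 5 replicate 1, against 3.467 to 3.565. The 2 high values in C57BL/6J were Col4a4 at 1.627 in HFD day 5 replicate 2, against 1.07 to 1.148, and Fbn1 at 2.811 in RC day 13 replicate 2, against 2.269 to 2.36. The part of the marker sums in these values was not tested.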

How the results depend on the processing

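Counts of members called by limma moved by over 1.5 times as follows, and the causes were not tested. With array weights the count was 26 over all strains, and in HFD minus RC it was 11, 11 and 4 in C57BL/6J at days 5, 13 and 33 and 7 and 2 in DBA/2J at days 5 and 33, beside 3051, 1362, 2743, 3824, 5990 and 1406 of all genes. The same weights gave 2 for the diet effect of DBA/2J and 4 for that of BALB/cJ, each minus C57BL/6J, beside 2112 and 1627 of all genes. For day 33 minus day 5 they gave 6, 6 and 2 in C57BL/6J, DBA/2J and BALB/cJ, beside 1402, 4365 and 434 of all genes. Without a variance trend the count was 1 in C57BL/6J day 5, beside 228 of all genes. With genes of mean log2 CPM above 1, and with log2(CPM + 1), it was 1 and 1 for those diet effects, and 2 in C57BL/6J day 13 with log2(CPM + 1). With the level filter, 1.49% and 1.76% of all genes passed for the diet effects of DBA/2J and BALB/cJ, each minus C57BL/6J. With log2(CPM + 1) these shares were 1.71% and 1.99%, and 1.31% passed in C57BL/6J day 13. With voom it was 14 in C57BL/6J, 1 at day 5 and 2 at day 13, 2 and 1 for the diet effects, and 1 for time in DBA/2J. With each strain fitted alone the count was 0 in C57BL/6J day 13, and for time 0 in C57BL/6J and 1 in DBA/2J, beside 27, 66 and 969 of all genes.

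With the title number as covariate the count was 1 in C57BL/6J, 1 in BALB/cJ, 0 and 3 in C57BL/6J days 5 and 13, 11 and 14 for DBA/2J and BALB/cJ minus C57BL/6J on chow, and 3, 0 and 1 for time. Of all genes, 31, 204, 0, 301, 5370, 5309, 145, 0 and 790 passed in that order. Signs then turned for Fn1 in C57BL/6J (1.05), Postn in DBA/2J minus C57BL/6J (-0.0105), Col4a4 in BALB/cJ minus C57BL/6J (-0.00827) and Col4a3 over time in DBA/2J (-0.0614). With macrophage and endothelial scores the count was 4 over all strains, 3 in C57BL/6J, 0 at its day 5, 12 and 11 for those strain pairs, and 16, 1 and 4 for time. Of all genes, 429, 990, 54, 3372, 3590, 223, 2090 and 113 passed in that order. In BALB/cJ minus C57BL/6J Col4a4 (-0.221), Col4a1 (-0.131) and Col5a3 (-0.251) then turned sign. Without day 5 the count was 1 over all strains, 2 in C57BL/6J and 19 for BALB/cJ minus DBA/2J, beside 20, 387 and 4011 of all genes. Of the alternatives added after seeing the data, leaving out day 13 gave 11 in C57BL/6J, beside 739 of all genes. Leaving out day 33 gave 1 for the diet effect of DBA/2J minus C57BL/6J, beside 406. Leaving out the libraries apart in marker sums gave 23 over all strains, 1 in BALB/cJ, 11 in C57BL/6J day 5, 5 for the diet effect of BALB/cJ minus C57BL/6J, and 2 and 1 for time in C57BL/6J and DBA/2J. Of all genes, 718, 48, 294, 496, 121 and 1609 then passed in that order. Median centring moved no count by that much, and of 72 named results it changed no call.

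Leaving out 1 library at a time gave 12 to 21 over all strains, 13 to 26 in C57BL/6J, 1 to 5, 0 to 5 and 0 to 3 at its days 5, 13 and 33, 0 to 2 in DBA/2J day 5, and 0 in DBA/2J and BALB/cJ otherwise. It gave 0 to 2 for both diet effects minus C57BL/6J and 0 for BALB/cJ minus DBA/2J, 24 to 29, 40 to 42 and 24 to 32 for DBA/2J minus C57BL/6J, BALB/cJ minus C57BL/6J and BALB/cJ minus DBA/2J on chow, and 1, 0 to 2 and 0 to 1 for time in C57BL/6J, DBA/2J and BALB/cJ. The counts of all genes in these refits are not given here. Members with few reads, such as Pdgfra (2 to 128 per library) and Col26a1 (2 to 45), are limited by counting error.

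HFD and RC libraries of 1 strain and day shared 21 title numbers, in 8 of 9 pairs of strain and day, and none in C57BL/6J day 5. The labels do not say what a shared number means. Deviations from the group means correlated by over 0.1 in 9 of these 21 library pairs (range -0.287 to 0.349), so the libraries were not taken as paired. With the number as a replicate block (limma's duplicateCorrelation, correlation 0.0565, added after seeing the data), the count was 15 over all strains, 24 in C57BL/6J and 3 at its day 13, 1 for each diet effect minus C57BL/6J, and 1 for time in DBA/2J, where Col4a4 lost its call. It moved no other count by over 1.5 times.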

Other observations

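Among pathway genes outside the members, most that differed between strains on chow were higher in BALB/cJ than in C57BL/6J. Of 17 basement membrane genes other than type IV collagen 11 were higher and 3 lower, of 15 elastic fibre genes 10 were higher and none lower, and of 18 proteases and inhibitors 12 were higher and 1 lower (limma adjusted p under 0.05, against 27.7% of all genes higher and 28.6% lower). Matrix receptors were divided, with 6 of 20 higher and 8 lower, and so were genes of TGF-beta and PDGF signalling, with 7 of 19 higher and 8 lower. In DBA/2J minus C57BL/6J 9 of the 17 basement membrane genes were higher and 2 lower, and 5 of the 15 elastic fibre genes were higher and none lower.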
